A study of Mus musculus with 9 samples.

Results

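The imprinted growth network genes are 10 named genes (H19, Dlk1, Meg3, Mest, Plagl1, Cdkn1c, Grb10, Peg3, Ndn and Zim1) that were taken by their platform gene symbol. Of these, 9 had probe sets of their own, among 18193 genes tested in all. H19 was listed only on a probe set that carries the name of the microRNA gene Mir675 as well, and that probe set is given here under both names. The study hybridised 9 arrays: cells of 3 sort gates were taken from neonatal back skin at postnatal day 2, in each of 3 mice. Gate R1 held GFP-CD133- cells, labelled as dermal cells without dermal papilla. Gate R2 held GFP-CD133+ cells, labelled as zigzag papillae, and gate R3 held GFP+CD133+ cells, labelled as guard, awl and auchene papillae. The papilla is the cluster of mesenchymal cells that instructs the hair follicle, CD133 is encoded by Prom1, and GFP reports Sox2 in the mouse line used for such sorts. The labels name no treatment and give neither strain nor genotype, and the gates are cells of the same mice.

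Imprinted genes are expressed mainly from the allele of a single parent, and methylation set in the germ line differs between the parental alleles. Many of them act on growth before and shortly after birth, and a group that is switched down together as organs mature is known as the imprinted gene network, with the zinc finger factor Plagl1 as a regulator. Among the members, Dlk1, Mest, Plagl1, Peg3 and Ndn are known to be expressed from the paternal allele, and H19, Meg3, Cdkn1c, Zim1 and, outside the brain, Grb10 from the maternal allele. The arrays measured total RNA and did not tell the alleles apart.

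Values below are log2 expression values, in which a step of 1 is a 2-fold difference. A guide to background, the 95th percentile over 43 probe sets of olfactory receptor genes, lay between 5.02 and 5.47, and array medians lay between 6.13 and 6.20. Prom1 and Sox2 followed the gates in part. Mean Prom1 levels were 7.43 in the CD133- gate R1, and 11.85 and 10.32 in the CD133+ gates R2 and R3. Sox2 averaged 4.19 in R1, 7.08 in R2 and 10.66 in R3. The labels alone do not account for 2 steps. Both CD133+ gates differed in Prom1, with a log2 change of -1.54 from R2 to R3. Both GFP- gates differed in Sox2, with a log2 change of 2.90 from R1 to R2, where its mean exceeded the background guide. Of 20 papilla genes, 19 were called higher in R3 than in R1 (Prom1 and Sox2 among them) and 13 in R2 than in R1. In R3 against R2, 9 were higher, 1 (Prom1) was lower and 10 were not called. R2 carried endothelial signal (14 of 16 genes higher than in R1) and R3 carried glial signal (8 of 9 genes higher than in R2). R1 carried keratinocyte and leukocyte signal, with 13 of 14 and 12 of 15 genes called lower in R2, and as many in R3. As a measure of RNA integrity, the actin signal at the 3' end exceeded that at the 5' end by 0.04 to 0.07 in R1, 0.11 to 0.22 in R2 and 0.12 to 0.20 in R3. For Gapdh the same difference was larger and overlapped between gates, at 2.63 to 2.97, 2.57 to 2.85 and 2.68 to 3.02. The part of RNA integrity in the differences from R1 was not tested. In sorted cell pools, fewer cells of a type and less RNA per cell cannot be told apart.

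Against R1, 4 of the 9 members were called lower in R2 (Dlk1, Zim1, Cdkn1c and Ndn) and 6 were called lower in R3 (the same 4 with Mest and Peg3). None was called higher, and Meg3, Plagl1 and Grb10 were called in no comparison. A gene was called at an adjusted p under 0.05 in limma, a linear model with a moderated spread fitted over all genes. Over all genes 13.1% were called between R2 and R1 (6.16% lower and 6.89% higher in R2) and 18.7% between R3 and R1 (10.8% lower and 7.9% higher in R3). All 9 members lay above the median gene in mean level, where calls were more frequent. In a fit of the 9096 genes above it, 2156 were called between R2 and R1 and 3056 between R3 and R1. The members called in that fit were 4 and 6. The arrays of R2 and R1 did not overlap for 5 of the 9 members, against 30.8% of all genes, and those of R3 and R1 for 8 of the 9, against 34.4%. The 8 included Meg3, which was higher in R3 (log2 change 0.25), and Grb10, which was lower by a small step (-0.09). Neither of these was called. The median log2 change of the members was -0.53 in R2 and -0.76 in R3, against -0.02 and -0.01 over all genes. The comparisons share arrays, so they are not separate evidence.

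**Figure D1:**
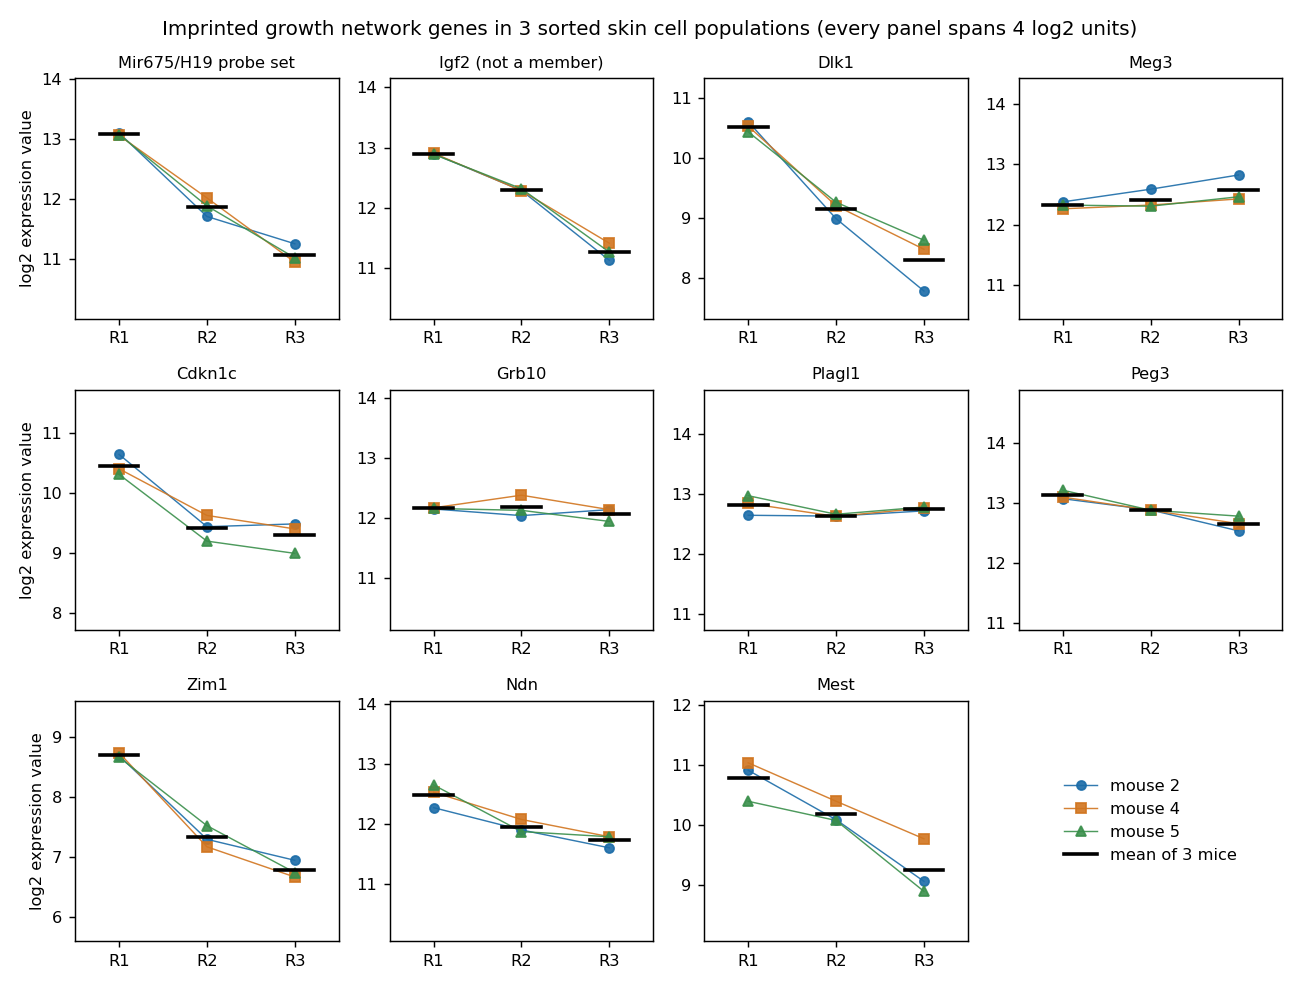
Log2 expression value (vertical axis) in gates R1, R2 and R3 (horizontal axis) for 9 members, the probe set named for Mir675 and H19, and Igf2. Points joined by a line are the arrays of 1 mouse and black bars are means of 3 mice. Dlk1 steps down from a mean of 10.52 to 9.15 and 8.30, while Meg3 stays between 12.26 and 12.83 on every array.

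H19 encodes a maternally expressed non-coding RNA that holds the hairpin of miR-675, and it lies next to the growth factor gene Igf2, with which it shares control elements. Its probe set cannot separate the long RNA from the microRNA precursor within it. The mature arms are shown because their precursor lies inside the RNA behind this signal; neither arm was itself measured. They are RefSeq sequences (GRCm38.p6, minus strand, chr7:142577112-142577133 for the 5p arm and chr7:142577078-142577099 for the 3p arm), with the seed, bases 2 to 8, in capitals.
mmu-miR-675-5p: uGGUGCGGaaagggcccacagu
mmu-miR-675-3p: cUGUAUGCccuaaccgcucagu
The seeds of the arms differ.

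The probe set named for Mir675 and H19 read 13.11, 13.07 and 13.08 in R1 (in the order of mice 2, 4 and 5, as in all lists of 3 values here). In R2 it read 11.72, 12.02 and 11.89, and in R3 11.26, 10.95 and 11.03. All 3 gates stood apart. Since the probe set has no single symbol, it was tested in a fit over all 45037 probe sets other than controls. There it was 2.31-fold lower in R2 than in R1 (log2 change -1.21, standard error 0.14, adjusted p = 0.000795) and 4.01-fold lower in R3 than in R1 (adjusted p = 3.41e-05). R3 lay 1.74-fold under R2 (log2 change -0.80, adjusted p = 0.0135). In that fit 8.53%, 13.4% and 3.07% of probe sets were called in these comparisons. The step from R2 to R3 had an adjusted p of 0.062 without R2 replicate 4 and 0.0618 without R3 replicate 4.

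Igf2, the paternally expressed neighbour of H19, is no member but was lower in the same gates. It read 12.90, 12.90 and 12.89 in R1, 12.28, 12.28 and 12.31 in R2, and 11.12, 11.41 and 11.26 in R3. Its arrays did not overlap between gates, and it was 1.52-fold lower in R2 and 3.10-fold lower in R3 than in R1 (adjusted p = 0.00783 and 1.78e-05). Its step from R2 to R3 was a log2 change of -1.03 (adjusted p = 0.000795).

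Dlk1 encodes a membrane protein with EGF repeats that is known to hold back fat cell differentiation. Its main probe set read 10.60, 10.53 and 10.43 in R1, 8.99, 9.21 and 9.26 in R2, and 7.78, 8.48 and 8.63 in R3. The gates did not overlap, and within each mouse the order was R1 over R2 over R3. Dlk1 was 2.59-fold lower in R2 than in R1 (log2 change -1.37, standard error 0.21, adjusted p = 0.00226) and 4.68-fold lower in R3 (adjusted p = 9.46e-05). Among main probe sets this was the largest fall of the 9 members, while with the probe sets of a gene averaged Dlk1 had a log2 change of -1.61 and Zim1 of -1.91. R3 lay 1.81-fold under R2 with an adjusted p of 0.0464, close to the threshold. That p was 0.0528 with the mouse as a fixed block, and from 0.0669 to 0.142 without R2 replicate 2, 4 or 5 or without R3 replicate 2 or 4. A dimmer probe set of Dlk1 averaged 7.72, 7.17 and 6.74 in R1, R2 and R3, and of its changes that between R3 and R1 passed over all probe sets (adjusted p = 0.0338).

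Meg3, the maternally expressed non-coding RNA gene that follows Dlk1 on chromosome 12 with no protein-coding gene between them, was not called. Its main probe set read 12.38, 12.26 and 12.32 in R1, 12.59, 12.32 and 12.31 in R2, and 12.83, 12.43 and 12.46 in R3. R3 arrays lay above R1 arrays without overlap, but the log2 change of 0.25 (95% interval -0.08 to 0.58) was not called (adjusted p = 0.282). Of the 11 Meg3 probe sets, all above the background guide, 0 were called in any comparison in the limma fit over all probe sets. The log2 changes of these 11 from R1 to R3 ran from -0.22 to 1.02. The non-coding RNA genes Rian and Mirg of the same imprinted cluster, both from the list of other imprinted genes, were not called either, with R3 minus R1 log2 changes of -0.05 and 0.30.

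Promoter windows of Dlk1 and Meg3 are shown because Dlk1 was called lower in both papilla gates and its neighbour Meg3 was not called. They are RefSeq sequences (GRCm38.p6) from 250 bases before to 50 after a listed start, on the plus strand, at chr12:109452573-109452872 for Dlk1 and chr12:109540746-109541045 for Meg3, with CG dinucleotides, the sites of methylation, in capitals.
Dlk1: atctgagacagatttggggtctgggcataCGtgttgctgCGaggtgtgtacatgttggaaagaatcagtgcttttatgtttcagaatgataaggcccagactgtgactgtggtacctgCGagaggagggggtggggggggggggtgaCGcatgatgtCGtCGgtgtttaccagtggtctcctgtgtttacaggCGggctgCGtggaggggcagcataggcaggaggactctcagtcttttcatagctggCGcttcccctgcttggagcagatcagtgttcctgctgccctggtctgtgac
Meg3: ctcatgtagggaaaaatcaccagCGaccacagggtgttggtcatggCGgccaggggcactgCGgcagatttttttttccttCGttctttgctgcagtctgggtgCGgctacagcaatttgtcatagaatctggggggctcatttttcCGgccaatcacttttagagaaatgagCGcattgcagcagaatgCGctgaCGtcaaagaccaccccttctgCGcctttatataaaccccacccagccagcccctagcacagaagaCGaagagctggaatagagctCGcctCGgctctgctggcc
A second listed Meg3 start, not printed, has a window with 1 CG dinucleotide and no TATAAA. The Dlk1 window held 9 CG dinucleotides and the first of Meg3 held 13, against a median of 7 over 32851 windows of this length. The letters TATAAA, searched on both strands, were present in that first Meg3 window and absent from that of Dlk1, and 13.6% of all windows hold them. Methylation was not measured here.

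Cdkn1c and Grb10 restrain growth. Cdkn1c encodes p57, an inhibitor of cyclin-dependent kinases, and its probe set read 10.64, 10.40 and 10.30 in R1, 9.43, 9.62 and 9.19 in R2, and 9.48, 9.40 and 8.99 in R3. Every R1 array lay above every papilla array, while R2 and R3 overlapped. Cdkn1c was 2.04-fold lower in R2 (-1.03 on the log2 scale with a standard error of 0.17, adjusted p = 0.00425) and 2.23-fold lower in R3 (adjusted p = 0.00156) than in R1. Between R3 and R2 its log2 change was -0.13 with a 95% interval of -0.52 to 0.26 (adjusted p = 0.766). Among 6 other inhibitor genes of these kinases, Cdkn2c was lower in R2 than in R1 (1.56-fold, adjusted p = 0.0242). Cdkn2c and Cdkn1a were lower in R3 (2.11-fold and 1.62-fold, adjusted p = 0.00115 and 0.0249). The call of Cdkn2c in R2 was lost without R1 replicate 2 or 4 or R2 replicate 2 or 5, and that of Cdkn1a without R1 replicate 2 or 4 or R3 replicate 2 or 4 (adjusted p up to 0.0839 and 0.0899). Limma called 0 of the 6 between R3 and R2, with 4 at an unadjusted p under 0.05, for which no share over all genes was taken. Beside these calls among 6 genes, 13.1% of all genes were called between R2 and R1. Between R3 and R1 it was 18.7%, and between R3 and R2 5.03%.

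Grb10 encodes an adaptor that binds the insulin and IGF1 receptors and dampens their signal. Its main probe set averaged 12.16 ± 0.01 (SD, n = 3) in R1, 12.19 ± 0.18 in R2 and, in R3, 12.08 ± 0.11. No difference was called, and the 95% intervals of its 3 log2 changes lay between -0.40 and 0.31. A dimmer Grb10 probe set averaged 8.47 in R1, 7.67 in R2 and 7.85 in R3, with adjusted p of 0.083 and 0.139 against R1. The related adaptor gene Grb14 went the other way from most members. It rose from 6.25 ± 0.24 in R1 to 7.95 ± 0.21 in R2 (3.25-fold, adjusted p = 0.000398) and 9.29 ± 0.30 in R3 (8.24-fold over R1, adjusted p = 1.08e-05, and 2.54-fold over R2, adjusted p = 0.0033). Of the 7 genes listed for the insulin and IGF receptor axis, 1 rose and 1 fell in R2 against R1, and 2 rose and 2 fell in R3 against R1. In R3 against R2, 1 rose and 1 fell. Over all genes 13.1%, 18.7% and 5.03% were called in these comparisons. The gene called lower in R2, Grb7, was above the background guide on 0 of 9 arrays (means 5.40 in R1 and 4.37 in R2). Its call there was lost without R1 replicate 2 or 5 or R2 replicate 4 or 5 (adjusted p up to 0.0574). The growth factor gene Igf1 was 1.90-fold lower in R3 than in R1 (adjusted p = 0.0112) and 2.28-fold lower than in R2.

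**Figure D2:**
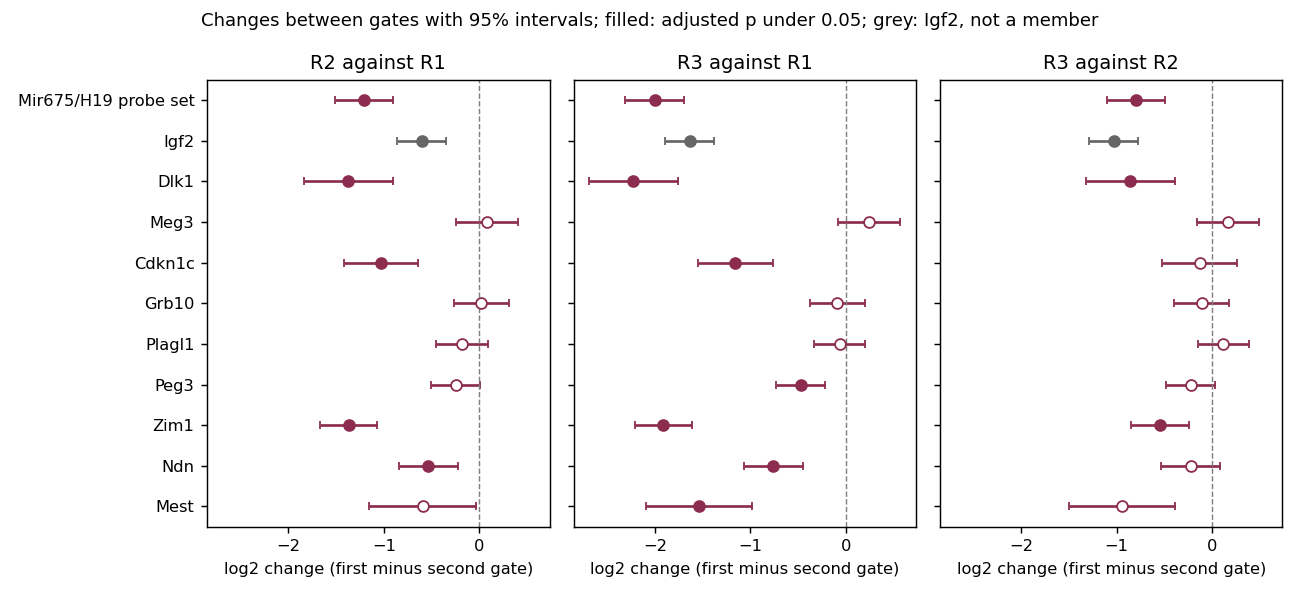
Log2 change (horizontal axis, first minus second gate) with its 95% interval for each member, the Mir675 and H19 probe set and Igf2 (vertical axis), in 3 panels for R2 against R1, R3 against R1 and R3 against R2. Filled points have an adjusted p under 0.05. In the panel of R3 against R1, Dlk1 lies at -2.23 and Meg3 at 0.25.

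Plagl1, Peg3 and Zim1 encode zinc finger proteins. Plagl1, also called Zac1, was among the brightest members and nearly level. Its main probe set read 12.64, 12.84 and 12.97 in R1, 12.63, 12.63 and 12.66 in R2, and 12.72, 12.77 and 12.78 in R3. R2 overlapped R1, and each of the R3 values lay inside the R1 range. Its log2 changes were -0.18 in R2 and -0.06 in R3 against R1, with 95% intervals of -0.45 to 0.09 and -0.33 to 0.20. The other Plagl1 probe sets averaged 11.39, 11.02 and 11.25, and 9.63, 9.01 and 9.26, across the gates, and were not called.

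Peg3, known for roles in maternal behaviour and in mesenchymal progenitors, was lower in R3 by a small step. Its main probe set read 13.07, 13.09 and 13.21 in R1, 12.88, 12.87 and 12.87 in R2, and 12.53, 12.65 and 12.78 in R3. The gates did not overlap, but of the 3 differences that of R3 from R1 was called, at 1.39-fold (log2 change -0.47, standard error 0.11, adjusted p = 0.0186). That call had an adjusted p of 0.0568 without R1 replicate 5, and of 0.0629 or 0.0553 when R3 replicate 2 or 4 was left out. R2 against R1 had a log2 change of -0.25 (adjusted p = 0.209). The dimmest of the 3 Peg3 probe sets above background averaged 11.03, 10.37 and 10.17, with larger changes of -0.66 in R2 and -0.86 in R3 (adjusted p = 0.017 and 0.0031 over all probe sets).

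Zim1, the maternally expressed neighbour of Peg3 on chromosome 7, was the dimmest member by main probe set and had the lowest p among them in both comparisons with R1. Its single probe set read 8.69, 8.74 and 8.66 in R1, 7.30, 7.17 and 7.52 in R2, and 6.95, 6.67 and 6.74 in R3. The gates did not overlap. Zim1 was 2.58-fold lower in R2 than in R1 (log2 change -1.37, standard error 0.13, adjusted p = 0.000182) and 3.76-fold lower in R3 (adjusted p = 1.76e-05). R3 lay 1.46-fold under R2 with an adjusted p of 0.0492, which was 0.073 with the mouse as a fixed block and from 0.059 to 0.158 when any 1 array of R2 or R3 was left out. Peg3 and Zim1 are known to be expressed from opposite parental alleles in other tissues and were both lower in R3 than in R1 here.

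Promoter windows of Peg3 and Zim1 are shown because these neighbours were both called lower in R3 than in R1. They are taken as above, on the minus strand, at chr7:6730370-6730669 for Peg3 and chr7:6696383-6696682 for Zim1.
Peg3: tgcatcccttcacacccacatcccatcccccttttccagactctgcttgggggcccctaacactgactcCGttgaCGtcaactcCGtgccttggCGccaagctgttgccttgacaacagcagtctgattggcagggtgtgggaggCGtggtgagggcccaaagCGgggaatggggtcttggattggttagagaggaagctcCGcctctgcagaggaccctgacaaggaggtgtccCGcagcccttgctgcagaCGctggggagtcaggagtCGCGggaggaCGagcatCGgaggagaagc
Zim1: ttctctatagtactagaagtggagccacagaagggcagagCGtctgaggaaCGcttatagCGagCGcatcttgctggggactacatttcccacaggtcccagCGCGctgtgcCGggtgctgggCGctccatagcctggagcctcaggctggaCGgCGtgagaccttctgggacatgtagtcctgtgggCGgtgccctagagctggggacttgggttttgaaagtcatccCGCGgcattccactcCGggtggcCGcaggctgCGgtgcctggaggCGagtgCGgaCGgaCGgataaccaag
The Peg3 window held 13 CG dinucleotides and that of Zim1 held 20, a number that 26.5% of all windows reach. The letters GGGGCCCC, a GC-rich palindrome, were searched because Plagl1 is known to bind GC-rich sites. They were found once in the Peg3 window and not in that of Zim1. Among the 12 member windows 1 held them, against 1.08% of all windows. The shorter GGGGCC, searched on both strands, was in 6 of the 12 (overlapping windows of Mest among them), against 25% of all windows. Binding of Plagl1 was not measured. Of the 10 members 8 matched a window, 12 in all, and H19 and Cdkn1c did not.

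Ndn encodes necdin, a MAGE family protein that restrains growth and is known from neurons and mesenchymal progenitors. Its main probe set read 12.27, 12.53 and 12.65 in R1, 11.90, 12.07 and 11.87 in R2, and 11.60, 11.78 and 11.78 in R3. The gates did not overlap. Ndn was 1.45-fold lower in R2 than in R1 (log2 change -0.53, standard error 0.14, adjusted p = 0.0314) and 1.69-fold lower in R3 (adjusted p = 0.00422). The call in R2 had an adjusted p of 0.0523 to 0.0924 without R1 replicate 4 or 5 or without R2 replicate 2, 4 or 5. Of 8 Ndn probe sets, 5 lay above the background guide on every array, and all 5 were called lower in R3 than in R1, with log2 changes from -1.10 to -0.56. The other 3, with means of 2.26 to 2.84, lay far under it.

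Mest encodes a protein of the hydrolase fold family and is known from embryonic mesoderm. Its probe set read 10.92, 11.04 and 10.40 in R1, 10.09, 10.40 and 10.08 in R2, and 9.07, 9.77 and 8.90 in R3. R3 lay below both other gates, while R1 and R2 touched, at 10.3985 in mouse 5 of R1 and 10.3997 in mouse 4 of R2. Mest was 2.90-fold lower in R3 than in R1 (log2 change -1.54, standard error 0.25, adjusted p = 0.00227). Between R3 and R2 its log2 change of -0.94 missed the threshold (adjusted p = 0.0638). The adjusted p was 0.0182 with a fixed block for mouse, 0.0482 with a random one and 0.0199 without R3 replicate 4. Within mice, the log2 difference of R3 from R2 ran from -1.18 to -0.63.

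Between the papilla gates, then, 2 of 9 members were called lower in R3 than in R2 (Dlk1 and Zim1) and 0 higher, against 5.03% of all genes called, 3.06% lower and 1.97% higher. In a fit of the 9096 genes above the median gene, 874 were called, with 3 members among them (Dlk1, Mest and Zim1). The arrays of R2 and R3 did not overlap for 6 of the 9, against 22.7% of all genes, and 7 of 9 changes were below 0. The 6 included Plagl1, which was higher in R3 (log2 change 0.12, not called). The median log2 change was -0.22, against -0.01 over all genes. With limma, 3 members had an unadjusted p under 0.05 in this comparison. The share of all genes at that unadjusted p was not taken, so this count has no background beside it. No call among the 9 members held in every alternative here. With the mouse as a fixed block, Mest was the 1 member called.

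Seen across the gates, 5 of 9 members (Dlk1, Mest, Peg3, Ndn and Zim1) were highest in R1 and lowest in R3 in each of the 3 mice, an order picked after the values were seen and shown by 4.88% of all genes. Igf2 and the Mir675 and H19 probe set had it too. By parental allele, 2 of 5 paternally and 2 of 4 maternally expressed members were called lower in R2 than in R1 (6.16% of all genes), 4 of 5 and 2 of 4 in R3 than in R1 (10.8%), and 1 of 5 and 1 of 4 in R3 than in R2 (3.06%). No difference between the alleles was tested.

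Where a gene had several probe sets, the dimmest one above background often lay further from 0. The second Igf2 probe set averaged 12.25 in R1 and 9.78 in R3 (log2 change -2.47, against -1.63 for the main one), and the dimmest of Peg3, Ndn, Plagl1 and Grb10 were likewise further below 0 from R1 to R3 than the main one. In Meg3 the dimmest set lay further above 0, at 0.53 against 0.25 for the main one, and neither was called. In Dlk1 the order was turned, with -0.99 for the dimmer set. The 9 members had 35 probe sets, of which 30 lay above the background guide on every array and 5, of Ndn and Peg3, did not. Whether brightness sets the size of these changes was not tested.

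**Figure D3:**
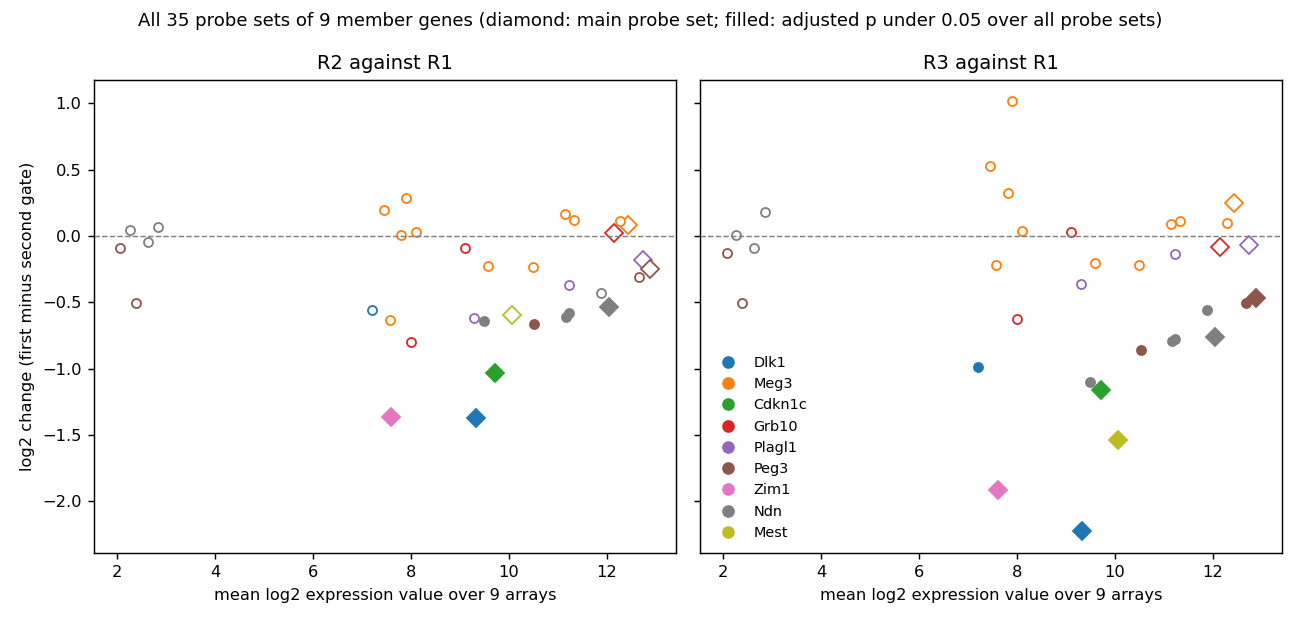
Log2 change (vertical axis) against the mean log2 expression value over 9 arrays (horizontal axis) for all 35 probe sets of 9 members, in R2 against R1 (left) and R3 against R1 (right). Diamonds are main probe sets and filled symbols have an adjusted p under 0.05 over all probe sets. The 11 Meg3 probe sets, all open, lie between -0.22 and 1.02 at the right, and the 5 dim probe sets lie near or below 0 at the far left of each panel.

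Other imprinted genes were called in both directions. Of 43 listed, 36 had a probe set of their own. In R2 against R1, 3 were called higher and 3 lower, beside 6.89% and 6.16% of all genes, with a median log2 change of 0.01. In R3 against R1, 4 were higher and 8 lower (median -0.03), beside 7.9% and 10.8% of all genes. In R3 against R2, 1 was higher and 2 lower (median -0.15), beside 1.97% and 3.06% of all genes.

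The lower genes began with Dcn, which encodes the matrix proteoglycan decorin, is imprinted in placenta and is a fibroblast gene in skin. The R1 level of Dcn was 12.73 ± 0.04 (SD, n = 3), that in R2 11.20 ± 0.23 and that in R3 10.64 ± 0.11, and Dcn was 2.90-fold lower in R2 and 4.26-fold lower in R3 than in R1 (adjusted p = 0.000125 and 1.37e-05). Osbpl5, a lipid transfer protein gene near Cdkn1c, was 1.68-fold lower in R3 (adjusted p = 0.00207). The potassium channel gene Kcnq1 was 1.90-fold and 2.23-fold lower, from a dim 6.35 in R1 to 5.42 and 5.19, the last 2 values no brighter than the background guide; the call in R2 was lost without R2 replicate 4 (adjusted p = 0.0591).

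Among the higher genes was Gatm, an enzyme gene of creatine synthesis, at 9.09 ± 0.34 in R3 against 5.34 ± 0.97 in R2 and 6.26 ± 0.27 in R1. It was 7.12-fold higher than in R1 (adjusted p = 0.00127). Against R2 the fitted ratio was 13.4 (adjusted p = 0.000736), but the R2 arrays read 6.36, 5.25 and 4.42, with the mean under the highest background guide of 5.47, so the size of this ratio is uncertain. Nnat, a membrane proteolipid gene of neural tissue, was 2.25-fold higher in R3 than in R1 (adjusted p = 0.00996), and Zdbf2 and Sfmbt2 were 1.91-fold and 1.94-fold higher (adjusted p = 0.0356 and 0.04). Zdbf2 stayed called without R3 replicate 2 and Sfmbt2 without R3 replicate 5, and with any other array of R1 or R3 left out their adjusted p reached up to 0.111 and 0.121. Glial markers were also higher in R3, in 8 of 9 cases against R2 and 6 of 9 against R1, and their part in these rises was not tested. Asb4, a ubiquitin ligase adaptor gene, stood apart in R2 at 7.96 ± 0.46, against 5.44 in R1 and 5.39 in R3, both under the highest background guide, so the sizes of its ratios are uncertain. The fitted ratios were 5.72 over R1 and 5.95 over R3 (adjusted p = 9.84e-05 and 0.000154). Endothelial genes were likewise high in R2, and their part in the level of Asb4 was not tested. Inpp5f and Ppp1r9a were 1.56-fold and 1.62-fold higher in R2 than in R1 (adjusted p = 0.0256 and 0.0476). With the mouse as a fixed block the adjusted p of Ppp1r9a was 0.0816. Inpp5f stayed called without R1 replicate 4 and Ppp1r9a without R1 or R2 replicate 2, and with any other array of R1 or R2 left out their adjusted p reached up to 0.0827 and 0.156.

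**Figure D4:**
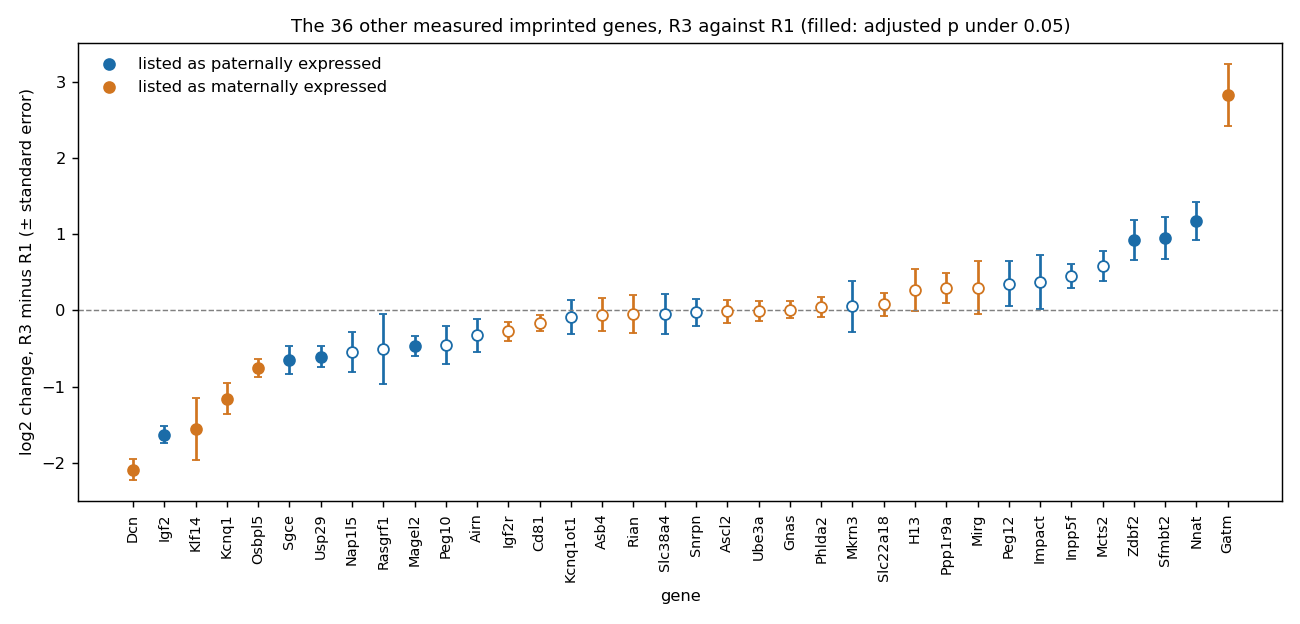
Log2 change from R1 to R3 (vertical axis, ± standard error, n = 3 per gate) for 36 other imprinted genes (horizontal axis, ordered by change). Blue marks genes listed as paternally and orange genes listed as maternally expressed, and filled points have an adjusted p under 0.05. Dcn lies lowest at -2.09 and Gatm highest at 2.83, and filled points lie on both sides of 0.

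Of 9 measured genes listed for setting or keeping imprints, 2 were called in R2 and 2 in R3 against R1, beside 13.1% and 18.7% of all genes. Zfp57, a zinc finger protein gene whose product protects methylation at imprinted regions, rose from 6.96 ± 0.28 in R1 to 8.64 ± 0.41 in R2 (3.21-fold, adjusted p = 0.00159) and 8.30 ± 0.29 in R3 (2.52-fold, adjusted p = 0.00397). Uhrf1, which guides the maintenance methyltransferase at replication, fell from 9.66 ± 0.17 in R1 to 8.74 ± 0.12 in R2 and 8.46 ± 0.25 in R3 (1.89-fold and 2.30-fold lower, adjusted p = 0.00474 and 0.000774). The remaining 7 were not called in any comparison (Ctcf had log2 changes of -0.40 and -0.46 against R1, at unadjusted p of 0.049 and 0.0273 in limma). Between R3 and R2 limma called 0 of the 9, beside 5.03% of all genes. There 1 had an unadjusted p under 0.05, with no share over all genes taken.

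The genes with profiles most like those of the called members were found by the smallest root-mean-square difference of centred log2 values over the 9 arrays. For Dlk1 they were Vwa2, Il1r2 and the proteoglycan gene Lum (0.18 to 0.19). For Zim1 they were the matrix crosslinking gene Loxl1, Dcn and Ifit2 (0.13 to 0.17), and for Cdkn1c the elastin gene Eln, Gorasp2 and H2ax (0.12 to 0.13). Those nearest to Mest were Arhgap18, Lmcd1 and the microfibril gene Mfap2 (0.19 to 0.20). Peg3 lay nearest to Cox5a, Erlec1 and the matrix gene Postn (0.05 to 0.07), and Ndn to Fam114a1, Ppic and Cd96 (0.08 to 0.10). Of these neighbours, Cd96 in all gates, Il1r2 in R2 and R3 and Lmcd1 in R3 had means under the highest background guide. The arrays compared share gates and mice, and likeness is given as a description.

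Markers of other cells moved with the gates as well. The summed level of 14 fibroblast genes, including Dcn and Lum, was 16.26 to 16.29 in R1, 15.64 to 15.80 in R2 and 15.54 to 15.59 in R3 (log2 of the sum). Of these 14, 6 were called lower in R2 and 8 in R3 than in R1, and 1, Fbln2, was called higher in both. The sum of 14 keratinocyte genes was 14.84 to 15.35 in R1 against 12.05 to 12.32 and 11.73 to 12.65 in R2 and R3, and that of 15 leukocyte genes was 13.25 to 13.73 against 11.06 to 11.37 and 11.11 to 11.49. None of the fibroblast or keratinocyte genes was under the background guide in any gate, while of the leukocyte list Cd3g and Cd207 were under it in all gates and Cd3e, Cd52, Cd69 and Ms4a2 in R2 and R3. Between R2 and R3 the endothelial sum was 12.80 to 13.03 in R2, 10.90 to 10.99 in R3 and 10.95 to 11.23 in R1, with Emcn, Esam, Plvap, Robo4, Tie1 and Vwf under the guide in R3. The glial sum was 9.26 to 9.52 in R2 and 12.70 to 12.90 in R3, and Cdh19, Fabp7, Foxd3 and Gfra3 were under the guide in R2. The adipocyte sum, of 7 genes, was 13.70 to 13.92, 13.21 to 13.52 and 12.28 to 12.48 across R1, R2 and R3. Of 6 melanocyte genes, 4 were lower in R2 and 5 in R3 than in R1. The sum of 12 muscle genes was 9.85 to 10.34, 10.32 to 10.72 and 10.50 to 10.93, but against R1 most calls went the other way, with 4 lower and 1 higher (Tnnt1) in R2, and 7 lower and 1 higher (Tnnt1) in R3, where 8 were under the guide. The sum of 11 pericyte genes was 13.15 to 13.23, 13.08 to 13.20 and 12.89 to 13.11, with 5 lower and 3 higher in R2, and 6 lower and 2 higher in R3. The part of these cells in the members' differences was not tested.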

How the data were processed

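Per the submitters' processing notes the authors used RMA, and the deposited series matrix gives its log2 value for each probe set. RMA subtracts background, equalises the distributions and summarises probes; the sources used here give neither its version nor the arrays it was run on. Per the labels' protocols, RNA was amplified with the WT-Ovation Pico system and labelled with biotin. Amplification and quantile steps can compress changes. Of 45101 probe sets, 34945 had 1 symbol in the platform annotation, 932 several and 9160 none, and 64 controls were left out. The brightest probe set on average stood for its gene. Gates and mouse numbers came from the labels.

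Gates were compared with limma 3.58.1 in R 4.3.3 over all 9 arrays with 1 coefficient per gate and Benjamini-Hochberg adjustment over 18193 genes; total degrees of freedom were 9.49. The test was checked on simulated data. Equal numbers mark 1 mouse in the labels, which pairs the arrays across gates; deviations from gate means correlated at 0.007 to 0.18 within a mouse and at -0.16 to 0.04 between mice. The members and gene lists were chosen with earlier results of these data known. All members, up to 4 other imprinted genes per direction and comparison, up to 2 genes of each smaller list and the 3 nearest profiles were named. Alternatives were a mouse block, left-out arrays, other scalings, filters and variances, and other uses of probe sets. P-values of the main fit rest on the spread of arrays within gates, pooled over the 3 gates and moderated, without the pairing by mouse. Precision is limited by 3 arrays per gate.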

Additional observations from a re-analysis of the deposited data

How the results depend on the processing

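Between R3 and R2, the count of called members is the least stable result. It was 2 with all arrays, 1 with the mouse as a fixed replicate block, after centring each array on its median or with a gene's probe sets averaged, and 0 in the 6 arrays alone, after quantile normalization again, with single-symbol or all probe sets tested singly, or with a 2-fold minimum. It was 3 with the mouse as a random block or in genes above the median gene, and 2 with trended, robust variance. Without 1 array of R2 or R3 it ranged from 0 to 1. In all of these fits, 3 or 4 members had an unadjusted p under 0.05 in limma, a count without a share over all genes beside it. The fit over all probe sets was chosen after seeing the data. The counts against R1 stayed within 1.5 times, at 3 to 5 of 9 in R2 (4 with all arrays) and 4 to 6 of 9 in R3 (6). With a 2-fold minimum the other imprinted genes called were 2 in R2 against R1 (6 with all arrays) and 6 in R3 against R1 (12). The last count ranged from 7 to 10 without 1 array, with 7 without R1 replicate 2, R3 replicate 2 or R3 replicate 4. The mouse as a block changed no other call of a member than those given for Dlk1, Zim1 and Mest. No called change of a member reversed in any alternative run. Over all genes, 1554 to 1990 were called in R2 against R1, 2519 to 3009 in R3 against R1 and 582 to 813 in R3 against R2 without 1 array, and 1083, 1476 and 509 with a 2-fold minimum. The scalings moved the median gene by -0.0124 to 0.00352. RMA values carry no detection call, so signals near 5.47 or under it set no lower limit on a level.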
